A study of Mus musculus with 24 samples.

Results

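Genes of the epidermal growth factor (EGF), hepatocyte growth factor (HGF) and fibroblast growth factor (FGF) receptor pathways were followed through mouse liver organoids. They comprised 3 receptors of the ERBB family (Egfr, Erbb2 and Erbb3), 5 EGF family ligands (Areg, Ereg, Hbegf, Tgfa and Btc), the HGF receptor Met and the FGF receptor Fgfr2. The genes were taken by symbol, and all 10 had a row in each of the 3 deposited tables, among 31053, 25876 and 20729 genes respectively. The tables held 24 RNA-seq libraries from BALB/c mice, with levels in FPKM, which scales fragments by gene length and by library depth. The hepatocyte table held 3 libraries each of hepatocyte organoids (Hep-Orgs) at passages P1, P5 and P10 and of primary hepatocytes (Pri-Hep), the EpCAM-negative liver cells. The cholangiocyte table held 3 libraries each of cholangiocyte organoids (Cho-Orgs), grown from EpCAM-positive cells, at P0, P5 and P10. The Smart-Seq table held 1 library each of P0 Hep-Orgs picked by shape as grape-like, intermediate or round-like. All were wild-type, from mice aged 6 to 8 weeks by the study's methods. By the study's media list, organoids of both lineages were grown with recombinant EGF, HGF and FGF10 and the TGF-beta receptor inhibitor A83-01. The hepatocyte medium of the P1 to P10 Hep-Orgs also held FGF7, the WNT agonist CHIR99021, the Notch pathway inhibitor DAPT and dexamethasone, and the cholangiocyte medium held Noggin, Wnt3a and forskolin, which raises cyclic AMP. Ligands of EGFR, MET and FGFR2 were thus in the media of the passaged organoids, and no neuregulin was listed. By the study's account the Smart-Seq shapes arose in an earlier hepatocyte medium, before DAPT and dexamethasone were added, whose recipe was not analysed here.

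EGFR is the receptor for EGF and for the 5 ligands followed here, which are made as membrane proteins and released by proteases such as ADAM17. ERBB2 binds no known ligand and signals by pairing with other ERBB receptors, while ERBB3 binds neuregulins, has a weak kinase and couples to phosphoinositide 3-kinase. MET is the sole known high-affinity receptor for HGF, and the epithelial splice form of FGFR2 binds FGF7 and FGF10. In the liver EGFR and MET drive hepatocyte proliferation in culture and after tissue loss. A gene's FPKM does not separate the epithelial and mesenchymal splice forms of Fgfr2.

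Ereg, Areg and Btc lay within 328 kb of each other on chromosome 5 of the mouse genome (GRCm38/mm10), at chr5:91074622-91093646, chr5:91139599-91148432 and chr5:91357261-91402994. The other members were on other chromosomes, with Egfr at chr11:16752203-16918158 and Erbb2 at chr11:98412470-98437716. Epgn, the gene of a further EGF family ligand, lay at chr5:91027464-91035215, beside Ereg, and its mean was 0.0409 FPKM over the 12 libraries of the hepatocyte table and at most 0.0257 FPKM in a Cho-Orgs group. Promoter sequences of 7 members were found in RefSeq (GRCm38.p6), and Ereg, Erbb3 and Hbegf had no entry used here. The 250 bases before the annotated start are shown for Areg and Btc, neighbours on chromosome 5 whose levels moved differently, for Tgfa, which rose late in the Cho-Orgs, and for Egfr. Capitals mark a cyclic AMP response element (CRE, TGACGTCA), a GC box (GGGCGG or its reverse complement CCGCCC) and a TATA box (TATAAA), each searched on both strands, as was the AP-1 motif TGANTCA.
Areg promoter: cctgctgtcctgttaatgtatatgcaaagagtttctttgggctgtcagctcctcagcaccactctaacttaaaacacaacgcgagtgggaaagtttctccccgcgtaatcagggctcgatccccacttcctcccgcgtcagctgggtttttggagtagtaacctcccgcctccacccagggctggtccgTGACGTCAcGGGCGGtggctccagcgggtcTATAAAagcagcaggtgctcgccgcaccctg
Btc promoter: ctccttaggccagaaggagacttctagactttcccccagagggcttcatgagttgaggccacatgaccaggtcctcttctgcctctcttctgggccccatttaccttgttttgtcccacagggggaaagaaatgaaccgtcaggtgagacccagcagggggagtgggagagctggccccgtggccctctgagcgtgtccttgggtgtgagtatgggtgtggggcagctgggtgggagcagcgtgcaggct
Tgfa promoter: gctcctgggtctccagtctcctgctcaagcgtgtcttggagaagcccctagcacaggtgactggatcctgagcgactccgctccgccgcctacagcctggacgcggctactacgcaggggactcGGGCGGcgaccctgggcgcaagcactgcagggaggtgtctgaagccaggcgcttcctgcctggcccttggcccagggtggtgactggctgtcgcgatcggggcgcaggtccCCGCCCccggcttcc
Egfr promoter: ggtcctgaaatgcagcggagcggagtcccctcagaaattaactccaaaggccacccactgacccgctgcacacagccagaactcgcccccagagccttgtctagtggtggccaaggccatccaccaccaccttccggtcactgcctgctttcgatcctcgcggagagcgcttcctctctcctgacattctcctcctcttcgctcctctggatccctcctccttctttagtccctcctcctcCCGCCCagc
These were read at chr5:91139349-91139598 on the plus strand for Areg, chr5:91402995-91403244 on the minus strand for Btc, chr6:86194972-86195221 on the plus strand for Tgfa and chr11:16751953-16752202 on the plus strand for Egfr. The Areg window held 1 CRE beginning 61 bases before the start, 1 GC box and 1 TATA box beginning 31 bases before it. The letters of the CRE occurred in 1.55% of the 32851 promoters of the same length, those of the TATA box in 12.4%, those of the GC box in 32.7% and those of the AP-1 motif in 6.75%. The Tgfa window held 2 GC boxes and the Egfr window 1, and none of the 4 motifs was found in the Btc window. The match is a description of letters and names no site in use.

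The libraries were checked against markers of liver cell types before the members were compared. In the hepatocyte table, the 10 hepatocyte markers summed to between 600.0 and 660.2 FPKM in all 12 libraries and the 10 cholangiocyte markers to between 3889 and 4104 FPKM. The libraries labelled Pri-Hep held Alb (albumin) at 106 to 121 FPKM and Cyp2e1 at most 0.0300 FPKM. They held the biliary keratin Krt19 at 229 to 241 FPKM and Epcam at 265 to 275 FPKM. Their markers thus did not match primary hepatocytes and did not part them from the organoids. The 9 Hep-Orgs libraries held Alb at 107 to 128 FPKM, Krt19 at 235 to 247, Epcam at 261 to 281 and no Cyp2e1. By the study's account Krt7 and Krt19 did not return in Hep-Orgs on passage. The names Hep-Orgs and hepatocyte table thus follow the labels, and these markers did not bear them out. No pair of the 12 libraries was a duplicate by its counts. The chi-square per degree of freedom was 1.94 to 3.16 within groups and 1.82 to 4.57 between groups. These ranges overlapped and the lowest value was between groups, so the check did not part the groups. It can find copied counts only, and whether libraries were repeats of the same RNA was not tested. In the Cho-Orgs, the summed hepatocyte markers stood at 6405 to 7358 FPKM at P0, 198 to 240.2 at P5 and 78.2 to 83.7 at P10, while 8 proliferation markers summed to 207 to 311 FPKM at P0, 111 to 119 at P5 and 13.8 to 15.9 at P10. In the Smart-Seq table, 8 macrophage markers summed to 8990.1 FPKM in the grape-like library, 2663 in the intermediate one and 1434 in the round-like one, and 10 stellate and mesenchymal markers to 1817, 448 and 378 FPKM. The part of these cell types and of proliferation in the results for the members was not tested. In bulk RNA, fewer cells of a type and less RNA per cell cannot be told apart.

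To ask how receptor and ligand genes changed with passage, Cho-Orgs at P0, P5 and P10 were compared in 1 limma fit over 11593 genes. From P0 to P10, 8 of the 10 members rose, Fgfr2 fell and Btc did not pass the test, at an adjusted p under 0.05 (limma with Benjamini-Hochberg adjustment). Over all genes tested, 41.0% rose and 31.3% fell in this comparison. The median log2 fold change was 0.86 over the members and 0.07 over all genes. The gains came at different passages, with Areg and Ereg rising by P5 and Egfr and Tgfa rising between P5 and P10.

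**Figure D1:**
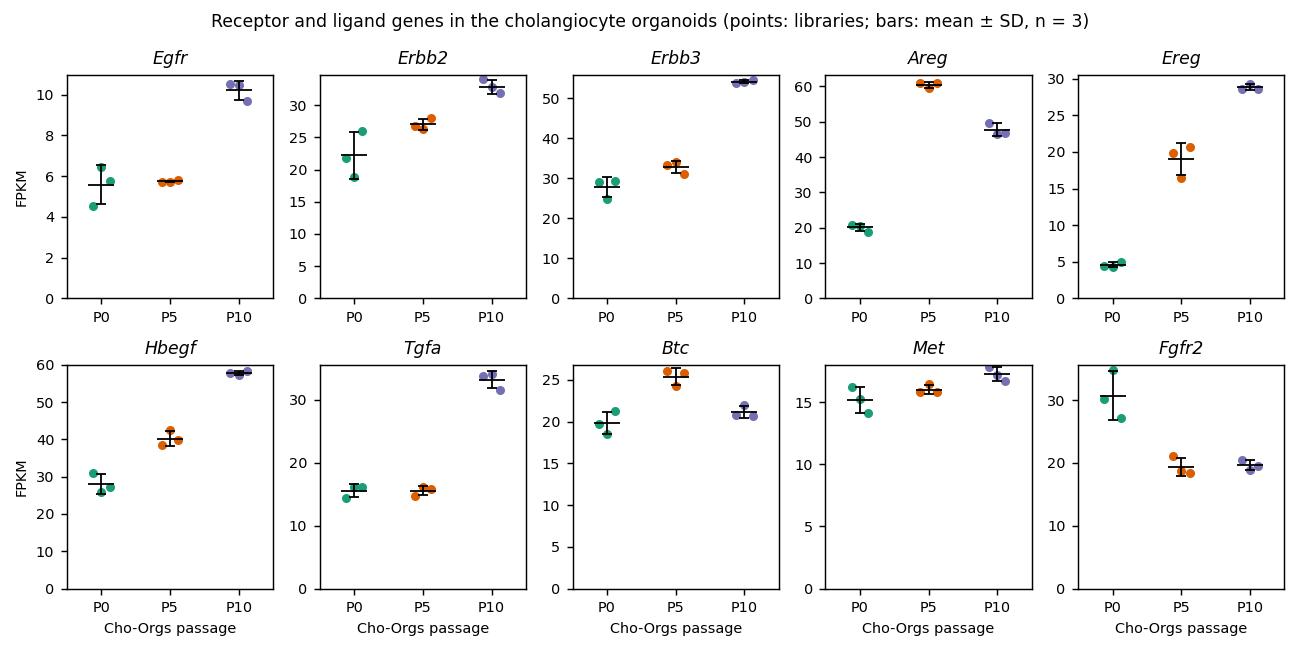
FPKM (vertical axis, from 0) of the 10 genes in the 3 Cho-Orgs libraries of each passage (horizontal axis), with points for libraries and bars for mean ± SD. Ereg rises from 4.58 FPKM at P0 to 28.9 at P10, Tgfa stays near 15.5 FPKM at P0 and P5 before reaching 33.2, and Fgfr2 falls from 30.7 to 19.3 by P5.

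Among the ERBB receptors, Egfr measured 4.54, 6.47 and 5.74 FPKM in the 3 P0 libraries, 5.73, 5.70 and 5.79 at P5, and 10.5, 10.5 and 9.68 at P10. The P0 and P5 libraries overlapped and every P10 library lay above them. Egfr thus rose between P5 and P10 by 0.73 on the log2 scale (SE 0.10, adjusted p = 1.2e-04, limma), and the P5 to P0 difference was 0.04 (95% confidence interval -0.17 to 0.26).

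Erbb3 measured 29.1, 24.9 and 29.3 FPKM at P0, 33.4, 34.0 and 31.2 at P5, and 53.8, 54.2 and 54.5 at P10. No 2 passages overlapped, and its log2 fold change was 0.24 from P0 to P5 and 0.71 from P5 to P10. Erbb2, the ligandless partner, measured 21.8, 18.8 and 26.1 FPKM at P0, 26.8, 26.4 and 28.0 at P5, and 34.0, 32.8 and 31.8 at P10. The P0 libraries of Erbb2 were the most spread, with an SD of 3.64 FPKM against 0.874 at P5. Its rise from P0 to P10 was 0.56 (SE 0.10, adjusted p = 4.7e-04, limma). The early gains were less firm, since the adjusted p of Erbb2 from P0 to P5 was 0.0287 and became 0.126 without the replicate 2 libraries, where that of Erbb3 went from 0.0114 to 0.101. Erbb2 from P5 to P10, with an adjusted p of 0.0310, likewise reached 0.165 without the replicate 1 libraries. Summed over the 3 receptors, the level was 55.6 ± 5.43 FPKM at P0, 65.6 ± 0.586 at P5 and 97.3 ± 1.19 at P10 (mean ± SD, n = 3 each).

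Among the ligand genes, Ereg, which encodes epiregulin, a ligand of EGFR and ERBB4, measured 4.43, 4.32 and 4.997 FPKM at P0, 19.8, 16.5 and 20.6 at P5, and 28.7, 29.3 and 28.6 at P10. It rose in both steps without overlap, and its overall log2 fold change between P0 and P10 ranked highest of the 10 genes at 2.42 (SE 0.08, adjusted p = 7.9e-09, limma). Areg, which encodes the EGFR ligand amphiregulin, measured 20.9, 20.5 and 18.9 FPKM at P0, 60.9, 59.5 and 60.9 at P5, and 49.8, 46.6 and 46.9 at P10. Areg therefore peaked at P5, rising by 1.55 on the log2 scale from P0 and then falling by 0.33 to P10 (adjusted p = 3.3e-04, limma).

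Tgfa, which encodes transforming growth factor alpha, measured 14.4, 16.1 and 16.1 FPKM at P0, 14.7, 16.1 and 15.8 at P5, and 33.8, 34.1 and 31.6 at P10. The P0 and P5 libraries overlapped, with a log2 difference of 0.00 (95% confidence interval -0.14 to 0.14), and each P10 library lay above both. The rise from P5 to P10 was 1.05 (SE 0.06, adjusted p = 7.8e-07, limma). Hbegf, the gene of heparin-binding EGF-like growth factor, rose in nearly equal steps of 0.51 and 0.51. Its libraries measured 30.9, 26.0 and 27.3 FPKM at P0, 38.5, 42.5 and 39.7 at P5, and 57.7, 57.3 and 58.4 at P10.

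Btc, the gene of betacellulin, measured 19.7, 18.6 and 21.2 FPKM at P0, 26.1, 24.2 and 25.9 at P5, and 20.8, 21.9 and 20.7 at P10. It rose by 0.34 to P5 and fell by 0.25 to P10, so that the P0 and P10 libraries overlapped. The adjusted p of the fall was 0.00417 (limma) and became 0.0520 without the replicate 3 libraries. Btc, lying 209 kb beyond the end of Areg, thus did not share the net gain of Ereg and Areg.

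Summed over the 5 ligands, the level went from 88.1 ± 2.44 FPKM at P0 to 161 ± 2.08 at P5 and 189 ± 2.27 at P10 (mean ± SD, n = 3 each). Its composition shifted too. Ereg made up 5.21% of the sum at P0 and 15.3% at P10, while Btc went from 22.5% to 11.2% and Areg went from 22.8% to 37.6% at P5 and 25.3% at P10. These shares are of FPKM and describe transcripts, not released protein.

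**Figure D2:**
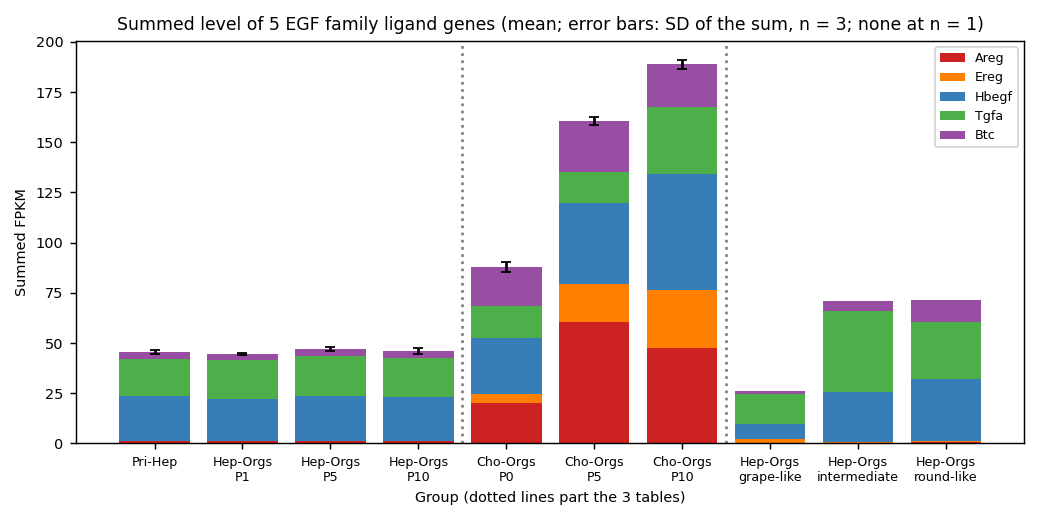
Summed FPKM of the 5 EGF family ligand genes (vertical axis, from 0) in each group, stacked by gene as group means, with error bars for the SD of the sum over 3 libraries and none where a group is 1 library. The Cho-Orgs climb from 88.1 to 189 FPKM with passage, the 4 groups of the hepatocyte table lie between 44.6 and 47.0, and Areg and Ereg are visible chiefly in the Cho-Orgs.

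The 2 receptors outside the ERBB family went different ways. Met measured 16.2, 15.3 and 14.1 FPKM at P0, 15.8, 16.4 and 15.8 at P5, and 17.8, 17.2 and 16.7 at P10. Its gain from P0 to P10 was small, at 0.17 (95% confidence interval 0.04 to 0.30, adjusted p = 0.0208, limma), and the adjusted p was 0.0856 without the replicate 2 libraries, 0.127 without the replicate 3 libraries and 0.160 with median-ratio scaling. Fgfr2 measured 30.2, 34.8 and 27.1 FPKM at P0, 21.1, 18.7 and 18.3 at P5, and 20.5, 18.9 and 19.5 at P10. It fell by 0.64 on the log2 scale to P5 (SE 0.09, adjusted p = 2.2e-04, limma) and differed by 0.02 between P5 and P10 (95% confidence interval -0.18 to 0.22).

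**Figure D3:**
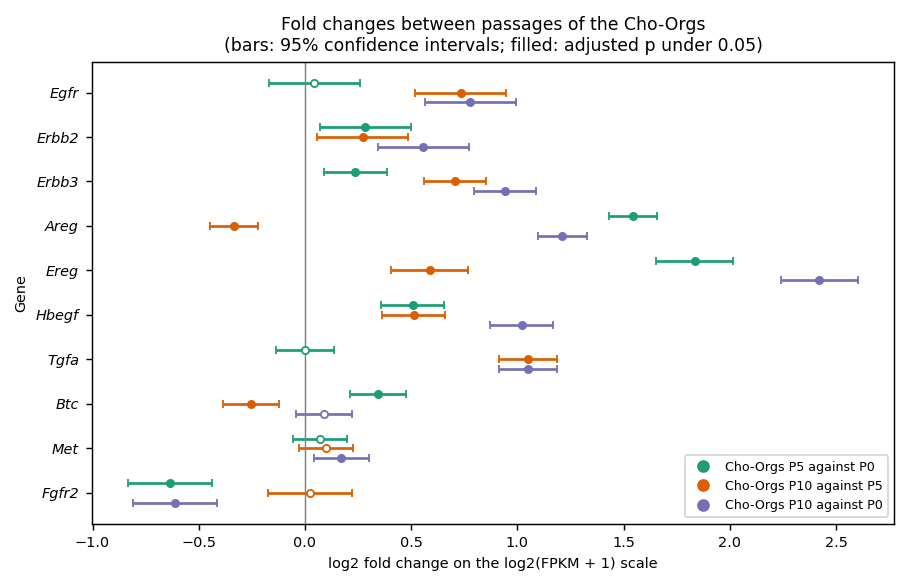
log2 fold changes (horizontal axis, on the log2(FPKM + 1) scale) with 95% confidence intervals for the 10 genes in the 3 passage comparisons of the Cho-Orgs, filled where the adjusted p was under 0.05. Ereg from P0 to P10 lies farthest to the right at 2.42, Fgfr2 lies left of 0 in both comparisons with P0, and Areg and Btc change side between the steps.

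From P0 to P5, 6 members rose, 1 fell and 3 did not pass the test, where 34.0% of all genes rose and 22.6% fell. With median-ratio scaling in place of FPKM, the share of higher among all calls in this comparison moved from 60.0% to 47.2%, and Erbb2 and Erbb3 no longer passed, while the differences of Egfr, Tgfa and Met, which had not passed, changed sign. From P5 to P10, 6 members rose and 2 fell, where 31.0% of all genes rose and 30.5% fell. The difference between the 2 steps passed its own test for 7 of the 10 members, against 48.7% of all genes. The members' counts in the P0 to P5 step and in the P5 to P10 step stood above the share of all genes that rose. No test of the list was made. Since the members were chosen with earlier results of these data known, no conclusion about the list follows.

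The levels could be ordered within a passage, since FPKM is scaled by gene length. At P0, Fgfr2 was the highest of the 10 at 30.7 FPKM, but its libraries overlapped those of Hbegf, which overlapped those of Erbb3. At P10 Hbegf led at 57.8 ± 0.559 FPKM, followed without overlap by Erbb3 at 54.2 ± 0.308 and Areg at 47.8 ± 1.72, and then Tgfa and Erbb2, which overlapped at 33.2 and 32.9. Egfr was the lowest at P10, at 10.2 ± 0.465 FPKM (mean ± SD, n = 3).

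For each member, the 3 genes with the most similar profile over the 9 Cho-Orgs libraries were taken by Pearson correlation of log2(FPKM + 1). These libraries share 3 passage groups, so high values were common. Egfr was closest to Thsd4 (r = 0.996), Il6st (r = 0.992) and Anxa5 (r = 0.989). Areg was closest to Abcc5 (r = 0.998), Scel (r = 0.996) and Mdm2 (r = 0.995), and Ereg to Epha2 (r = 0.999), Nktr (r = 0.998) and Styk1 (r = 0.996). Hbegf was closest to Pdlim7 (r = 0.998) and to the ribosomal protein genes Rpl18 (r = 0.998) and Rpl10a (r = 0.996), and Erbb3 to Rpl10 (r = 0.997), Tcea1 (r = 0.996) and Npm1 (r = 0.994). Tgfa was closest to Frrs1 (r = 0.995), Myo18a (r = 0.994) and Aff1 (r = 0.993), and Erbb2 to Nipal1 (r = 0.985), Flii (r = 0.983) and Pgam5 (r = 0.982). Fgfr2 was closest to Mgat1 (r = 0.986), Trafd1 (r = 0.979) and Tead2 (r = 0.977), Btc to Tmem63a (r = 0.977), Tmprss2 (r = 0.970) and Rdm1 (r = 0.969), and Met to Thap11 (r = 0.973), Fam207a (r = 0.960) and Kdm1a (r = 0.959).

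Other genes of the same pathways were followed in 6 lists of 62 genes, of which 53 could be tested in the Cho-Orgs. From P0 to P10, 23 of the 53 rose, 16 fell and 14 did not pass, with a median log2 fold change of 0.05. These shares were near the 41.0% of all genes that rose and the 31.3% that fell, which are also the background of each list below. Of the genes induced by the kinase ERK, 6 of 8 rose and 1 fell, with a median of 0.79. Myc, a transcription factor of growth, went from 32.3 ± 1.81 to 150 ± 1.37 FPKM and Ccnd1, which encodes cyclin D1, from 216 ± 32.9 to 471 ± 4.78 FPKM (mean ± SD, n = 3), while the summed proliferation markers fell over the same passages. Fosl1, an AP-1 subunit, rose by 1.95, and Phlda1 rose by 1.13 to P5 and fell by 0.57 to P10. By step, 5 of these 8 genes rose and 0 fell from P0 to P5, with a median of 1.05. In that step 34.0% of all genes rose and 22.6% fell. From P5 to P10, 2 rose and 2 fell, with a median of -0.07, where 31.0% of all genes rose and 30.5% fell.

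Of the feedback inhibitors, 8 of 13 rose and 1 fell from P0 to P10, where 41.0% of all genes rose and 31.3% fell. Spry2, a brake on receptor signalling to ERK, rose by 1.67 and Dusp5, an ERK phosphatase, by 1.25. The gene that fell was Errfi1, which encodes the EGFR kinase inhibitor MIG6 and was the most abundant of the list at 121 ± 22.1 FPKM at P0 and 62.1 ± 0.193 at P10. Of the genes of ligand release and HGF activation, 4 of 10 rose and 3 fell, near the 41.0% and 31.3% of all genes. Rhbdf1, which encodes a partner of the protease ADAM17, rose by 1.25 and Plau, the urokinase gene, by 1.49, whereas Adam17 fell by 0.33 and Hpn, the gene of the HGF-activating protease hepsin, fell by 2.48. Spint2, which encodes an inhibitor of such proteases, led that list at 463 ± 4.49 FPKM at P10 and did not pass the test from P0 to P10.

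Of the 16 adaptor and kinase genes, 4 rose and 7 fell from P0 to P10, where 41.0% of all genes rose and 31.3% fell, with a median of -0.08. Mapk3, which encodes ERK1, was the most abundant and fell by 0.54. Of 5 other receptors, 4 were tested, and the FGF receptor Fgfr1 fell by 2.83, from 6.32 ± 1.57 to 0.0138 ± 0.00952 FPKM. Fgfr4, the FGF receptor of hepatocytes, rose by 0.48 to P5 and fell by 1.16 to P10, and Fgfr3 fell by 1.46 to P5 and rose by 1.31 to P10 (Fgfr4 and Fgfr3, log2 scale, limma). Of 10 other ligands, only Mst1 and Nrg4 passed the filter on low values and both fell, by 2.36 and 1.22 from P0 to P10. Mst1 and Hpn are genes of hepatocytes, and the hepatocyte markers summed lower at P10 than at P0 as given above. Within that sum, mean Alb went from 4994 FPKM at P0 to 0.584 at P10, and mean Hnf4a from 64.3 to 56.4. A link between these markers and the falls of Mst1 and Hpn was not tested. Hgf itself did not pass the filter on low values.

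**Figure D4:**
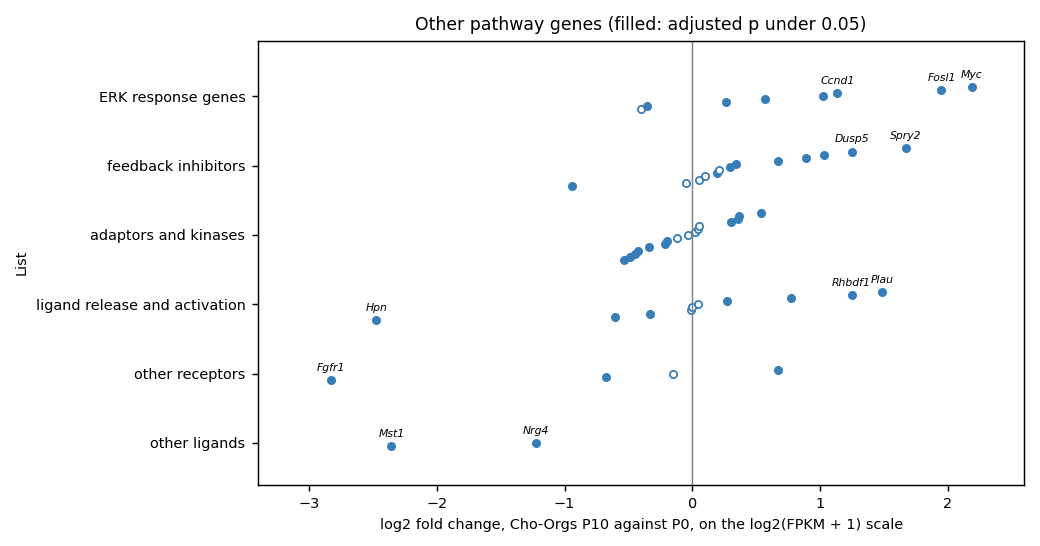
log2 fold changes of the tested genes of 6 pathway lists between Cho-Orgs P10 and P0 (horizontal axis, log2(FPKM + 1) scale), 1 point a gene and 1 row a list (vertical axis, spread for legibility), filled where the adjusted p was under 0.05. Myc at 2.19 lies farthest right and Fgfr1 at -2.83 farthest left, and the adaptor and kinase genes lie on both sides of 0.

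In the hepatocyte table the members were nearly level across all 12 libraries. Erbb3 was the highest with 54.7 to 58.0 FPKM, followed without overlap by Met with 32.9 to 34.8. Erbb2 with 22.7 to 25.6 and Hbegf with 19.8 to 23.3 overlapped, as did Hbegf and Tgfa with 18.6 to 20.4. Fgfr2 lay at 14.5 to 15.3, Egfr at 7.41 to 8.30 and Btc at 2.87 to 3.65 FPKM. Areg was near the limit of the filter, at 0.694 to 1.72 FPKM, or 13 to 38 fragments a library. Ereg lay at 0.0513 to 0.135 FPKM, or 4 to 10 fragments, in every library.

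The 9 Hep-Orgs libraries were compared with the 3 libraries labelled Pri-Hep over 10986 genes. Since the markers of the latter did not match primary hepatocytes, the comparison could not show whether expansion in culture changed these genes. None of the 9 members tested passed, where 0% of all genes did (limma, Benjamini-Hochberg), and 3 members and 966 genes had an unadjusted p under 0.05. Limma-voom on recovered fragments called 12 of all genes and none of the members. Egfr was 8.01 ± 0.213 FPKM in the Hep-Orgs (n = 9) and 7.58 ± 0.281 in those labelled Pri-Hep (n = 3), a log2 difference of 0.07 (95% confidence interval 0.00 to 0.14, adjusted p = 0.538). The widest interval was that of Areg, from -0.21 to 0.34 around 0.06. Ereg did not pass the filter, with 0.0934 to 0.135 FPKM in the libraries labelled Pri-Hep and 0.0513 to 0.0948 in the Hep-Orgs, which overlapped.

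By passage, 0.00910% of all genes were called between P1 and Pri-Hep and 0.00910% between P5 and Pri-Hep, 0% between P10 and Pri-Hep and 0% between P10 and P1, and no member in any of these. With the replicate number as a block, the counts of all genes called at P1 and at P5 went from 1 to 0. Unadjusted p under 0.05 were found for 1, 2, 0 and 0 of the 9 members tested in these comparisons and for 911, 1184, 730 and 986 of all genes. None of the 47 pathway genes tested passed in any of the 5 limma comparisons or in limma-voom, and 2 to 9 of them had an unadjusted p under 0.05. The most abundant pathway gene was Errfi1 at 262.6 to 273 FPKM in the libraries labelled Pri-Hep.

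**Figure D5:**
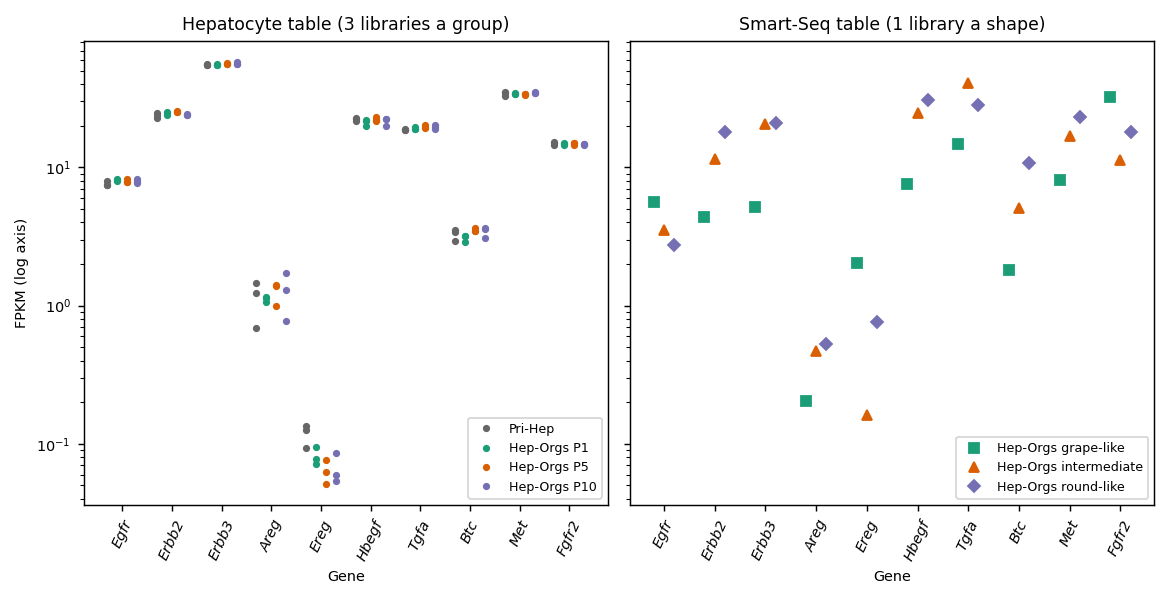
FPKM (vertical axis, log scale) of the 10 genes (horizontal axis) in the 12 libraries of the hepatocyte table, left, and the 3 Smart-Seq libraries, right, 1 point a library. On the left the groups lie on top of each other, from Erbb3 at 54.7 to 58.0 FPKM down to Ereg at 0.0513 to 0.135, and on the right the grape-like library lies lowest for Erbb2, Erbb3, Hbegf, Tgfa, Btc, Met and Areg.

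Side by side, Areg stood at 18.9 to 60.9 FPKM over the Cho-Orgs libraries against 0.694 to 1.72 in the hepatocyte table, and Ereg at 4.32 to 29.3 against 0.0513 to 0.135. Met showed the opposite order, with 14.1 to 17.8 FPKM in the Cho-Orgs and 32.9 to 34.8 in the hepatocyte table. The tables were normalized separately and the cultures differed in medium, so no test was made between them. All libraries of the hepatocyte table also held biliary markers, as given above.

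The Smart-Seq libraries allowed the shapes of Hep-Orgs to be compared, with 1 library each and hence no replicate check. The grape-like library held at least 2-fold less than the round-like one for 5 of the 9 members that reached 1 FPKM in some library, and at least 2-fold more for none, on the log2(FPKM + 1) scale. With a pseudocount of 0.1, Egfr (log2 ratio 1.01) and Ereg (log2 ratio 1.32) were also past 2-fold, both higher in the grape-like library. Over all 12595 genes, 8.82% were lower and 12.9% higher by that margin. Erbb2 measured 4.38, 11.5 and 18.0 FPKM in the grape-like library, the intermediate and the round-like, Erbb3 5.16, 20.4 and 20.9, and Met 8.06, 16.8 and 23.2. Among the ligands Hbegf measured 7.56, 24.9 and 30.9 FPKM in that order and Btc 1.81, 5.08 and 10.8. These 5 genes were the ones past 2-fold, with log2 ratios from -2.07 for Btc to -1.42 for Met.

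Tgfa measured 14.7, 40.5 and 28.4 FPKM, highest in the intermediate library. Fgfr2 and Egfr ran the other way, with Fgfr2 at 32.4, 11.3 and 18.1 FPKM and Egfr at 5.62, 3.50 and 2.73 FPKM. Ereg was highest in the grape-like library at 2.04 FPKM, against 0.162 and 0.756, and Areg did not reach 1 FPKM in any shape, at 0.206, 0.469 and 0.531. The 10 cholangiocyte markers summed to 889 FPKM in the grape-like library, 3513 in the intermediate one and 2889 in the round-like one. Among them, Epcam and Krt19 measured 29.7 and 9.86 FPKM in the grape-like library against 275 and 272 in the round-like one. The 10 hepatocyte markers summed to 5367.5 FPKM in the grape-like library, 8705 in the intermediate one and 1289 in the round-like one. The macrophage and mesenchymal markers were higher in the grape-like library, as given above. The part of these cell types in the members' ratios was not tested.

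Between the intermediate and round-like libraries, no member passed 2-fold in either direction, where 3.85% of all genes were higher and 2.54% lower. Between the grape-like and intermediate libraries, Ereg and Fgfr2 were at least 2-fold higher and Erbb2, Erbb3, Hbegf, Tgfa and Btc at least 2-fold lower in the grape-like library, where 9.71% of all genes were higher and 7.15% lower.

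Among pathway genes, the grape-like library held more Plau (47.4 against 8.76 FPKM in the round-like library), Hgf (19.8 against 3.91), Mst1 (6.29 against 1.26), Fgf7 (5.01 against 1.30) and Dusp4 (26.1 against 13.8). It held less Spint2 (52.0 against 275 FPKM), St14 (10.8 against 57.9), Spint1 (10.8 against 47.6), Fgfr4 (3.90 against 14.2) and Ccnd1 (45.9 against 129). St14 encodes matriptase, an HGF-activating protease, and Spint1 and Spint2 its inhibitors. Of 54 pathway genes that passed the filter, 5 were at least 2-fold higher and 12 at least 2-fold lower in the grape-like library. By the same margin, 12.9% of all genes were higher and 8.82% lower. Hgf and Fgf7, the genes of the ligands of MET and FGFR2, are known as mesenchymal genes of the liver. The grape-like library, with more of both, held less Met and more Fgfr2 than the round-like one. With 1 library a shape, a link between these levels was not tested.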

How the data were processed

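Bulk poly(A) RNA-seq libraries (21) and Smart-Seq libraries (3, amplified full-length cDNA) were analysed. The authors deposited FPKM values per gene for all tables. The submitters' processing notes name featureCounts 2.0.3, edgeR 3.40.2 and mm10. Whole fragments were recovered from the hepatocyte FPKM and gene lengths for 100% of values (tolerance 0.05), giving 14068906 to 27160365 fragments a library. Depths estimated from the other tables were 37540000 to 40050000 (Cho-Orgs) and 39890000 to 40540000 (Smart-Seq). Numbers of fragments carry counting error only, while confidence intervals came from limma and the spread between libraries.

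Groups came from the labels. FPKM was tested as log2(FPKM + 1), which understates changes of low genes, with limma 3.58.1 in R 4.3.3 (eBayes with trend) over genes that reached 1 FPKM in 3 or more libraries, all groups of a table in 1 fit, with Benjamini-Hochberg adjustment and a threshold of 0.05. Smart-Seq libraries were compared by log2 ratios over genes of at least 1 FPKM in 1 library. The scripts were tested on simulated data. Pathway genes were named where a called Cho-Orgs log2 fold change reached 1 in size (the 15 largest of 17), where they were the most abundant of a list, or as the 5 most different Smart-Seq genes a direction with at least 5 FPKM in 1 library. Others are named to complete a description and were chosen after their values were seen. Genes of similar profile were limited to a mean of at least 5 FPKM. The members and lists were chosen with earlier results of these data known, and the test of the difference between passage steps was added after the data had been seen.

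The study's figure legend ties replicate numbers to 3 mice, while its methods speak of independent cultures, so p-values may measure technical spread. The titles of the Cho-Orgs libraries carry M numbers at each passage, a code the study used for mice in its stellate cell figure. The main fit did not pair libraries by number. Taken over all pairs, same-numbered libraries did not deviate together (median correlation -0.0063 over 9 pairs of Cho-Orgs libraries and -0.0016 over 18 pairs of the hepatocyte table). Between P0 and P5 of the Cho-Orgs, same-numbered pairs had correlations of 0.119, 0.0903 and 0.0702. Differently numbered pairs of these passages ranged from -0.124 to 0.05045, and same-numbered pairs with P10 reached at most 0.00676. Alternatives were other pseudocounts, filters, scalings, sample sets, a replicate block, each replicate left out, and limma-voom on recovered fragments.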

Additional observations from a re-analysis of the deposited data

Results flagged for a closer look

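The change in the Cho-Orgs from P5 to P10 differed from that from P0 to P5 for 7 of the 10 members, by a limma test of the difference itself with Benjamini-Hochberg adjustment over all genes. The second step was higher than the first for Tgfa by 1.05 on the log2 scale (adjusted p = 4.8e-05), Egfr by 0.69 (adjusted p = 0.00698), Fgfr2 by 0.66 (adjusted p = 0.00586) and Erbb3 by 0.47 (adjusted p = 0.00745). It was lower for Areg, with a difference of -1.88 (adjusted p = 5.6e-07), Ereg, with -1.25 (adjusted p = 9.2e-05), and Btc, with -0.60 (adjusted p = 0.00109). Over all genes 48.7% passed this test. Without the replicate 3 libraries the adjusted p was 0.0734 for Egfr and 0.131 for Erbb3.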

How the results depend on the processing

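The counts of members and of pathway genes called stayed within 1.5 times in every alternative run for the Cho-Orgs and the hepatocyte table. Differences that had not passed the test changed sign as follows. From P0 to P5, median-ratio scaling gave -0.0311 for Egfr, -0.0834 for Tgfa and -0.0120 for Met. Leave-one-out fits ranged from -0.0731 to 0.146 for Egfr and from -0.0147 to 0.0153 for Tgfa. From P5 to P10, Fgfr2 ranged from -0.00809 to 0.0509. In the difference between the steps, TPM scaling gave -0.0507 for Hbegf and -0.0256 for Met and median-ratio scaling gave 0.0818 for Erbb2, and leave-one-out fits ranged from -0.0537 to 0.0635 for Erbb2, from -0.125 to 0.142 for Hbegf and from -0.0560 to 0.0791 for Met. In Hep-Orgs against Pri-Hep, they ranged from -0.0733 to 0.216 for Areg, from -0.0583 to 0.0796 for Btc and from -0.0190 to 0.0232 for Met. Of calls over all genes, Cho-Orgs P5 against P0 ranged from 4268 to 5269 with a replicate left out, against 6559. Against Pri-Hep, the pooled Hep-Orgs gave 1 call with no filter and 12 with limma-voom, P1 gave 0 without trend, 0 with the replicate block, 0 to 3 with a replicate left out and 30 with limma-voom, P5 gave 4 with no filter, 2 with TPM scaling, 0 without trend, 0 with the replicate block, 0 with a replicate left out and 39 with limma-voom, and P10 gave 2 with no filter. P10 against P1 gave 29 with limma-voom. The replicate block changed no call of a member and moved every other count of calls by less than 1.5 times, for example Cho-Orgs P5 against P0 from 6559 to 6381. Among the Smart-Seq ratios, the members past 2-fold between the intermediate and round-like libraries numbered 2 with a pseudocount of 0.1 and 1 with TPM scaling, against 0. Of the members' single Smart-Seq ratios recomputed, 37 moved beyond their counting interval and 53 did not, so their size depends on the pseudocount and scaling. The cause of these shifts was not tested. With 4 to 10 fragments a library, Ereg did not pass the filter in the hepatocyte table. A change of Ereg there was not tested in the main fits, and a small one could be missed at that level.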
